A study of Drosophila melanogaster with 8 samples.

Results

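The genes described here are 106 protein-coding fly genes that the deposited table knows only by a CG number and that were lower in heads in which a C9orf72-type repeat had been induced. They were taken from 7481 genes with such a number among 16727 genes in the table. A gene was kept when its mean normalised count over the uninduced libraries was at least 20, its mean over the induced libraries was at most 0.6 times that mean, and every induced library lay below every uninduced one. The normalised count is the number of reads on the gene after division by the size factor of its library, as the authors deposited it. CG3523 and CG6188 were left out of the choice beforehand. Because the members were chosen on this contrast, their fall on induction is a description of the choice and carries no test.

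All libraries came from heads of 7 d old female flies of the w1118 background with the genotype (G4C2)36; elavGS, which carries 36 copies of the GGGGCC repeat under the control of a neuronal driver. The 4 induced libraries came from flies fed 200 µM RU486 for 5 d and the 4 uninduced libraries from flies fed ethanol, the vehicle, for the same time, with 15 heads per library. The driver acts in neurons once the drug is present, whereas whole heads were sequenced, so that fat body, glia, muscle and eye added to every value. All induced and none of the uninduced flies ate RU486, and repeat-free flies fed RU486 were not among the samples, so that effects of the repeat and of the drug cannot be told apart. In a bulk sample such as a head, fewer cells of a type and less RNA per cell cannot be told apart either.

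A CG number is the identifier that a predicted fly gene received when the genome was annotated, and the gene keeps it as its only symbol until work on its function gives it a name. The number therefore groups genes by how little is written about them and not by what they do. Some members have since been named, and the roles given below come from those names or from synonyms in RefSeq, while members with a bare number are described by their values alone. One tissue that recurs below is the fat body, which stores fat, answers to feeding and releases proteins into the blood, and which in the head lies around the brain.

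The libraries held 13247282 to 14192723 counts in uninduced heads and 13421396 to 14962813 in induced heads. The first principal component of the expression values took 62.4% of the variance and separated the groups, and the second took 8.67% and set uninduced library 4, at 15.7, apart from the other uninduced libraries, at -10.7 to 0.80. Of 9905 genes tested with edgeR, 1866 (18.8%) were lower and 1750 (17.7%) were higher in induced heads at an adjusted p under 0.05. With library totals as the only scaling the counts were 874 lower and 4488 higher. The membership, the ratios, the structure and the clustering are also given below without uninduced library 4.

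Non-overlap of the groups by itself was common. Of 9306 genes of any name with an uninduced mean of at least 20, 1741 (18.7%) had every induced value below every uninduced one. The ratio of 0.6 was the stricter condition, since it and non-overlap together were met by 204 of them (2.19%). Among the 4074 CG genes at that level the share was 2.6%, which is the 106 members, and among the 5232 genes with other names it was 1.87%, or 98 genes. The opposite rule, at least 1 divided by 0.6 times the uninduced mean with no overlap, picked 117 CG genes that were higher, which serve below as a second reference beside the 4074.

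The induced mean of the members lay between 4.41% and 60.0% of the uninduced mean, with a median of 52.9% and quartiles of 45.2% and 57.2%. Most members thus sat near the upper limit, and 42 of the 106 were below a ratio of 0.5, 22 below 0.4, 7 below 0.3 and 3 below 0.2. The median log2 fold change of the members was -0.92, beside 0.00 over all genes tested. Their uninduced means ran from 22.5 to 40308 normalised counts, with a median of 754, and 46 members reached at least 1000. Within groups the median coefficient of variation was 14.2% over the uninduced and 10.5% over the induced libraries. The rule favours genes with close replicates, since it requires groups that do not overlap, so this spread describes the choice. All 106 passed the filter on low counts and 99 had at least 10 raw counts in every library, while 7 had fewer than 10 in some induced library.

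**Figure D1:**
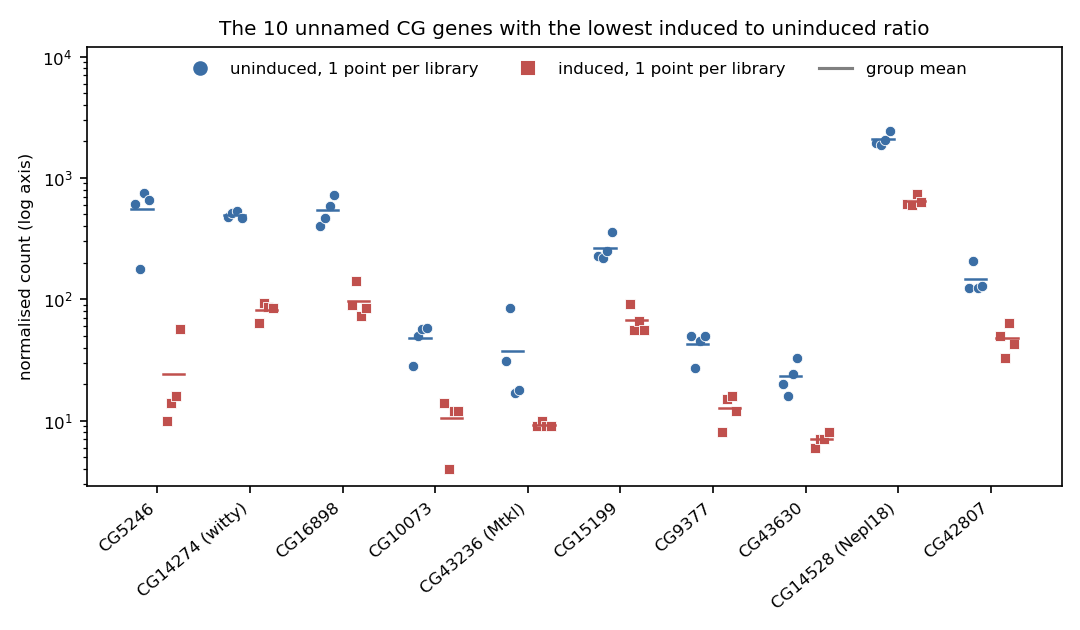
Normalised counts of the 10 members with the lowest ratio, on a log axis, with 1 point per library (circles, uninduced; squares, induced) and a line at each group mean. In CG5246 the lowest uninduced library (179) and the highest induced library (57) stand away from the rest of their groups, and in no gene do the groups overlap, as the rule required.

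The member with the lowest ratio was CG5246, whose RefSeq synonym SP96 places it among the serine proteases (3R, 17136111 to 17137195, plus strand, dm6). Its normalised counts were 614, 179, 750 and 655 in uninduced libraries 1 to 4 and 10, 14, 16 and 57 in induced libraries 1 to 4. The uninduced values spread widely, with library 2 far below the others, and induced library 4 was well above the other induced ones, yet the groups stayed apart. The induced mean was 4.41% of the uninduced mean and the log2 fold change -4.46 ± 0.47 (SE, n = 4 per group). Leaving out induced library 4 moved it to -5.31, more than 1.5 times in the ratio.

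CG14274, now called witty (2L, 8338287 to 8342056, plus strand), came next and was narrow in range in uninduced heads. It measured 481, 512, 537 and 468 normalised counts in uninduced heads and 64, 94, 86 and 85 in induced heads. The groups were far apart, with an induced mean at 16.5% of the uninduced mean and a log2 fold change of -2.60 ± 0.10.

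CG16898 (2R, 20003620 to 20005003, minus strand) followed with 402, 469, 585 and 723 normalised counts in uninduced and 89, 141, 73 and 84 in induced heads. Uninduced library 4 was the highest of its group and induced library 2 the highest of the other. Its ratio was 17.8% and its log2 fold change -2.50 ± 0.20.

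CG10073 (2R, 19380543 to 19384965, plus strand) was a weakly expressed member. Its normalised counts were 28, 50, 57 and 58 without and 14, 4, 12 and 12 with induction, so that only a few reads carried the induced mean of 21.8%. Uninduced library 1 and induced library 2 were the lowest of their groups.

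CG43236 is now named Mtkl, for Metchnikowin-like, after an antimicrobial peptide (2R, 14638538 to 14638935, plus strand). It had 31, 84, 17 and 18 normalised counts in uninduced heads and 9, 10, 9 and 9 in induced heads. The uninduced mean rested on library 2, and no other member had a coefficient of variation in uninduced heads as large as its 84.4%. The log2 fold change of -2.06 ± 0.51 shrank to -1.29 without that library.

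CG15199 (X, 11140474 to 11141835, minus strand) gave 227, 219, 248 and 356 normalised counts in uninduced and 91, 56, 66 and 56 in induced heads, an induced mean of 25.6%. Of its 664 exon bases 634 (95.5%) also belong to an antisense RNA gene, asRNA:CR44054, and the strand setting of the counting is not given in the sources used here, so reads of the gene and of its antisense partner cannot be told apart.

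CG9377 carries the synonym SPH166, given to serine protease homologues, proteins with the fold of a protease (2L, 13359901 to 13361565, minus strand). It had 50, 27, 45 and 50 normalised counts in uninduced and 8, 15, 16 and 12 in induced heads, at 29.7% of the uninduced mean. CG43630 (3R, 12676010 to 12676260, minus strand) was among the least abundant members, with 20, 16, 24 and 33 normalised counts in uninduced and 6, 7, 7 and 8 in induced heads. Its induced mean of 30.1% rests on few reads, and 75 of its 251 exon bases overlap Gnmt, described with the neighbours.

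CG14528, now Nepl18, is a neprilysin-like protein, of a family of metallopeptidases that cut small peptides (3R, 28875621 to 28877805, plus strand). It was the most abundant of the 10 lowest, with 1925, 1878, 2070 and 2436 normalised counts in uninduced and 613, 593, 731 and 635 in induced heads. The groups were far apart for the depth of these counts, with an induced mean at 31.0% and a log2 fold change of -1.69 ± 0.08. CG42807 (2R, 13570595 to 13572759, minus strand) closed the 10, with 123, 208, 124 and 128 normalised counts in uninduced heads, where library 2 stood out, and 50, 33, 64 and 43 in induced heads.

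**Figure D2:**
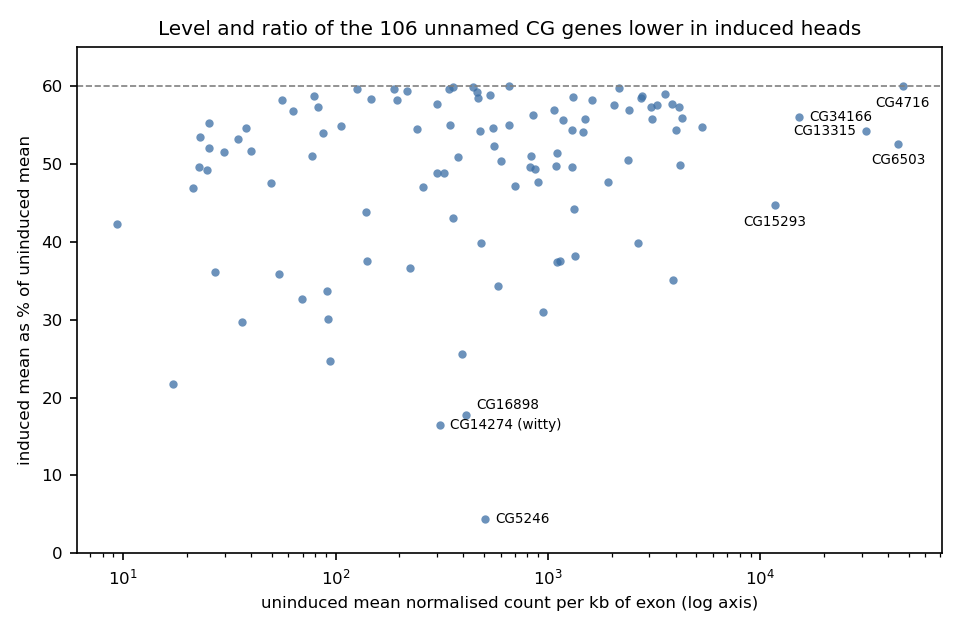
Induced mean as a percentage of the uninduced mean against the uninduced mean normalised count per kb of exon (log axis), 1 point per member, with the limit of 60% as a dashed line. The 3 members with the lowest ratio and the 5 with the highest level per kb are named: CG5246, witty and CG16898 have middling levels, and the 5 most abundant members lie between 44.7% and 60.0%.

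The most abundant members, compared per kb of exon so that gene length does not enter, had ratios on both sides of the members' median of 52.9%. CG4716 had the highest uninduced level, 46870 normalised counts per kb. Its normalised counts were 38712, 37025, 36975 and 48519 in uninduced heads and 24543, 24060, 24613 and 23506 in induced heads. The induced libraries agreed closely, uninduced library 4 stood above its group, and the ratio of 59.99% was among the closest to the limit.

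CG6503, which RefSeq also lists under pncr007:3R, an old name for a putative noncoding RNA although the gene is now annotated as protein-coding, had 44581 normalised counts per kb. Its 408 exon bases collected 16992, 16523, 16132 and 23109 normalised counts in uninduced and 9883, 9124, 10012 and 9246 in induced heads. Uninduced library 4 was again the highest, and the induced mean was 52.6% of the uninduced one.

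CG13315 reached 31565 normalised counts per kb, with 19579, 18689, 17404 and 22356 normalised counts in uninduced and 10740, 9807, 10773 and 10982 in induced heads. CG34166 had 15205 per kb, with uninduced values from 6923 to 12231 and induced values from 4279 to 6230. For CG34166 the lowest uninduced and the highest induced value were thus close, whereas those of CG13315 were far apart.

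CG15293 had the lowest ratio of the abundant members, 44.7%. It measured 14210, 14032, 15256 and 18931 normalised counts in uninduced and 7076, 6289, 7838 and 6688 in induced heads. This gave a log2 fold change of -1.16 ± 0.09 at 11673 uninduced normalised counts per kb. The next in order were CG2736 (5301 per kb), Gbp3 (4267), CG16772 (4198), CG6426 (4135) and CG3164 (4012). The levels per kb of Gbp3, CG16772, CG6426 and CG3164 lie closer together than the spread of their own uninduced libraries, and their order is not resolved.

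RefSeq gives a name to 25 of the 106 members (23.6%), beside 27.6% of the 4074 expressed CG genes and 18.8% of the 117 higher ones. The named members described next were picked from these annotations after their values had been seen. They are grouped below as peptidases and other secreted proteins, enzymes of lipid, sugar and amino acid metabolism, further enzymes, and membrane proteins. The grouping only orders the description, and the shares of such groups among the other expressed CG genes were not counted.

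Members with protease names were found at every level. Beside CG5246 and CG9377, the synonyms SP133 and SPH35 mark CG12256 and CG5390. CG12256 had 49 to 72 normalised counts in uninduced and 28 to 39 in induced heads, with 85.1% of its exon bases shared with an antisense RNA gene. CG5390 was abundant, with 3832, 3487, 3743 and 4564 normalised counts in uninduced and 2255, 2154, 2476 and 2292 in induced heads (log2 fold change -0.77 ± 0.07). The neprilysin-like group had 4 members, Nepl18, Nepl6 (CG42370), Nepl21 (CG14526) and Nepl19 (CG14523). Nepl6 had 892, 917, 1018 and 1158 normalised counts in uninduced and 590, 484, 536 and 552 in induced heads.

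Among other secreted products, Gbp3 (CG17244) encodes a growth-blocking peptide, a cytokine-like peptide of insects. It had 3605, 3597, 3553 and 4522 normalised counts in uninduced and 2464, 1990, 2056 and 2030 in induced heads. The highest library of each group, uninduced 4 and induced 1, stood clear of the other 3, and the log2 fold change was -0.84 ± 0.08. CG15537 has the synonym crhbp, the name of a binding protein for a peptide hormone in vertebrates, and had 443 to 513 normalised counts in uninduced and 251 to 298 in induced heads.

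Several members act on lipids. Dgat2 (CG1942) makes the last step to triglyceride, and was one of the rarest, with 27, 35, 22 and 35 normalised counts in uninduced and 10, 15, 19 and 15 in induced heads. Pisd (CG5991), the mitochondrial decarboxylase that turns phosphatidylserine into phosphatidylethanolamine, was abundant, with 8278, 7997, 7508 and 8741 normalised counts in uninduced and 5064, 4174, 4544 and 4962 in induced heads. Its induced mean was 57.6% of the uninduced mean, a log2 fold change of -0.79 ± 0.07, and the groups were separated by more than either spread.

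CG3699 has the synonym DECR2, a reductase used in the breakdown of unsaturated fatty acids. It had 490, 842, 747 and 855 normalised counts in uninduced and 460, 247, 421 and 318 in induced heads, so that the groups nearly touched between uninduced library 1 and induced library 1. Phyhd1 (CG14688), named after phytanoyl-CoA dioxygenases, had 2155 to 2572 in uninduced and 1209 to 1492 in induced heads. Hao (CG18003), a peroxisomal oxidase of hydroxy acids, had 1234 to 1678 and 672 to 921.

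Enzymes of sugar metabolism included Pepck2 (CG10924), a phosphoenolpyruvate carboxykinase, of the step that leads back from oxaloacetate towards glucose and glycerol. It measured 133, 167, 263 and 198 normalised counts in uninduced and 79, 81, 61 and 52 in induced heads, at 35.9% of the uninduced mean, with a log2 fold change of -1.48 ± 0.19. CG32444, with a synonym that names an aldose 1-epimerase, which interconverts the forms of glucose and galactose, had 4197, 4490, 4579 and 6556 normalised counts in uninduced and 1794, 1619, 1832 and 1721 in induced heads. Uninduced library 4 stood apart there, and without it the log2 fold change of -1.51 ± 0.11 was -1.34. Naglu (CG13397), a lysosomal enzyme that breaks down heparan sulphate, had 660 to 731 in uninduced and 303 to 435 in induced heads.

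Among enzymes of amino acids, P5CS (CG7470), which makes the precursor of proline, had 11392, 11342, 12019 and 10202 normalised counts in uninduced and 6223, 6366, 6748 and 6268 in induced heads. It was one of 8 members in which uninduced library 4 was the lowest of its group, and its log2 fold change was -0.81 ± 0.06. Daao1 (CG12338), a D-amino acid oxidase, had 2715 to 3308 in uninduced and 1649 to 1844 in induced heads, and Srr (CG8129), serine racemase, which makes D-serine, had 709 to 1001 and 453 to 507.

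Of further enzymes, Ugt37A3 (CG5999), a UDP-glycosyltransferase, had 174, 232, 257 and 276 normalised counts in uninduced and 80, 84, 104 and 85 in induced heads, at 37.6% of the uninduced mean. HINT1 (CG2862), a small nucleotide-binding hydrolase, had 2301, 2082, 2091 and 2808 in uninduced and 1464, 1241, 1318 and 1317 in induced heads. Sid (CG9989), a DNase named for its rise under stress, had 83 to 119 and 39 to 81, which left 2 normalised counts between the groups. Its coefficient of variation in induced heads was 33.3%. CG12896, listed as a peroxiredoxin, had 80 to 109 in uninduced and 40 to 58 in induced heads. CG11700, listed as a ubiquitin, had 34 to 46 and 13 to 27.

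Membrane and cell-contact proteins were fewer. Eglp4 (CG4019), a glycerol-conducting relative of aquaporins, had 2471, 2517, 2587 and 3170 normalised counts in uninduced and 1672, 1522, 1386 and 1415 in induced heads. Both DIP-zeta (CG31708), a neuronal surface protein of the immunoglobulin family, and hoka (CG13704), of the septate junctions of gut epithelia, were expressed at lower levels. DIP-zeta had 182 to 221 in uninduced and 109 to 123 in induced heads, with uninduced library 4 the lowest, and hoka had 246 to 368 and 145 to 239. For hoka the gap between the groups was 7 normalised counts.

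The members that carry a bare number and have not been described so far spanned the same range of ratios. CG4572 had 2028, 1848, 2195 and 2462 normalised counts in uninduced and 729, 829, 803 and 838 in induced heads. Its groups were separated by more than 1000 normalised counts, and the log2 fold change was -1.41 ± 0.08. CG32706, at 36.2% of its uninduced mean, had only 17 to 27 normalised counts in uninduced and 5 to 10 in induced heads.

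Replicates of a few members were wide apart. CG5078 had 173, 99, 79 and 138 normalised counts in uninduced and 48, 26, 40 and 51 in induced heads, with a coefficient of variation of 34.2% in uninduced heads. CG33099 had 35, 21, 24 and 44, and 17, 18, 7 and 19, where induced library 3 was far below the others. CG3348 had 538, 313, 430 and 287, and 208, 195, 142 and 194. In CG3348 uninduced library 1 was the highest and uninduced library 4 the lowest.

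Others were narrow. CG18135 had the smallest uninduced coefficient of variation of any member, 2.79%, with 14075, 14221, 14867 and 14811 normalised counts in uninduced and 9028, 7900, 8843 and 8419 in induced heads. CG31313 had 2222, 2152, 2408 and 3029 in uninduced and 1370, 1338, 1359 and 1407 in induced heads, where its coefficient of variation was 2.11%. It was narrow in induced heads alone, since uninduced library 4 stood above its group. CG1774 had 1189, 1154, 1231 and 1316, and 603, 709, 706 and 671. For CG18135 and CG1774 the distance between the groups was larger than the range within either, and for CG31313 it was smaller than the uninduced range. Their ratios of 59.0, 55.0 and 55.8% were among the less extreme.

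Between ratios of 0.47 and 0.54 lay a run of members of middling level. CG7560 had 1135 to 1349 normalised counts in uninduced and 559 to 649 in induced heads, CG14439 had 1221 to 1483 and 620 to 774, and CG34331 had 923 to 1374 and 522 to 636. CG7966 had 867 to 1005 and 430 to 500, CG32512 had 719 to 896 and 372 to 441, CG4757 had 680 to 898 and 368 to 437, and CG1544 had 695 to 829 and 332 to 424. The rarer members of this run, CG9396, CG4306, CG43064, CG30148, CG31380, CG1979, CG42269 and CG4020, had uninduced means of 43.5 to 609.5 normalised counts.

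Closer to the limit, CG5958 had 3677, 3427, 3159 and 4100 normalised counts in uninduced and 2370, 1839, 1985 and 2032 in induced heads, CG3609 had 1647 to 2084 and 996 to 1103, and CG8539 had 1555 to 2276 and 889 to 1103. CG4408 had 1213 to 1772 and 730 to 917, CG7997 had 901 to 1241 and 536 to 628, CG10026 had 711 to 783 and 413 to 500, and CG18249 had 661 to 812 and 359 to 418. The phosphatase gene phu (CG8147, synonym Alp3) had 436, 363, 291 and 320 in uninduced and 281, 197, 194 and 168 in induced heads, so that uninduced library 3 and induced library 1 were only 10 normalised counts apart. The remaining members here were CG7135, CG31664, CG13086, CG16965, CG4594, CG13408, CG10063, CG33301 and CG44004, with uninduced means of 33 to 516.8 normalised counts.

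Near the limits of the rule, members and non-members were alike. The 3 members just inside the ratio of 0.6 were pippin (CG4797, a sugar transporter) at 59.996%, CG4716 at 59.99% and CG18547 at 59.9%. Just outside lay CG44006 at 60.06%, Daao2 (CG11236) at 60.08% and CG16756 at 60.2%. Pippin had 1391, 1363, 1297 and 1451 normalised counts in uninduced and 849, 821, 859 and 772 in induced heads, while Daao2 had 1385, 1348, 1349 and 1575, and 900, 791, 895 and 813. The values just inside and just outside the limit differed by less than the spread within a group. On the limit of 20, CG3345 (mean 22.5) and CG43630 (23.2) were just inside, and CG17261 (15.2) and CG15539 (14.5) just outside. CG15539 had 12, 10, 19 and 17 normalised counts in uninduced and 2, 3, 2 and 1 in induced heads. A further 7 CG genes met the ratio and the level and failed because the groups overlapped.

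**Figure D3:**
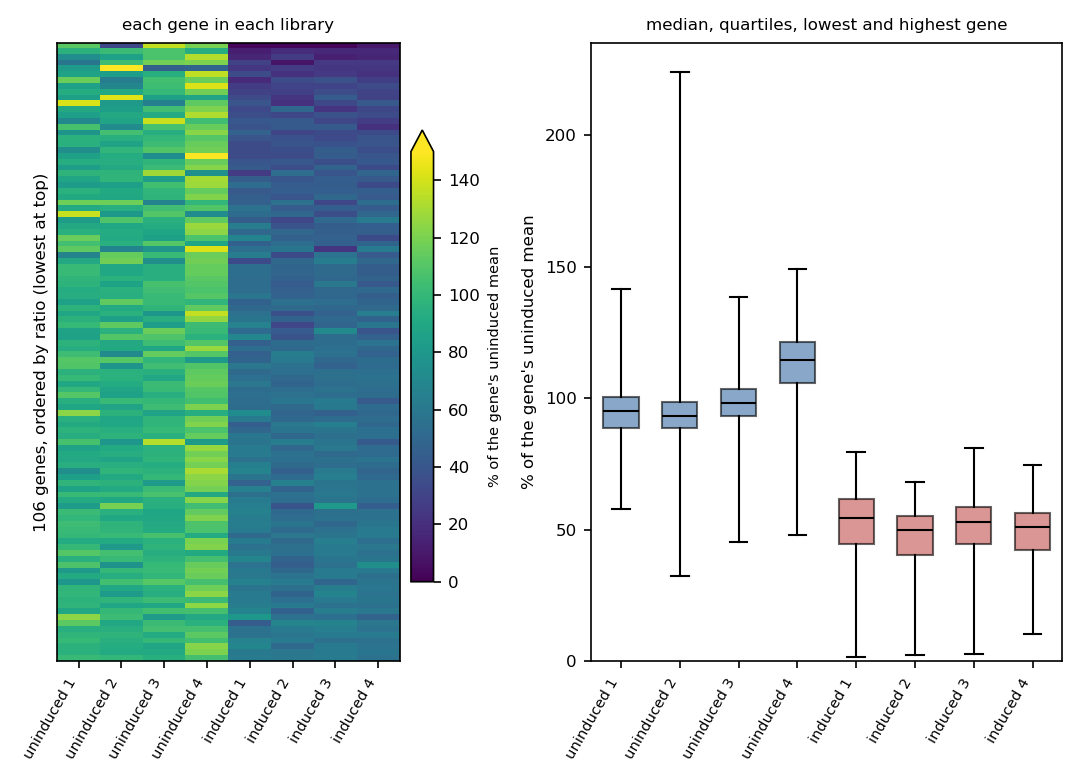
Left, every member (rows, ordered by ratio) in every library as a percentage of its own uninduced mean, with colours capped at 150%. Right, the same percentages per library as boxes (median and quartiles, whiskers to the lowest and highest gene). The medians of uninduced libraries 1 to 3 lie between 93.1% and 98.1%, that of uninduced library 4 is 114.5% and those of the induced libraries lie between 49.7% and 54.3%.

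Within the uninduced group most members were highest in library 4. As a percentage of each gene's uninduced mean, the median over the members was 95.3, 93.1, 98.1 and 114.5% in uninduced libraries 1 to 4 and 54.3, 49.7, 53.1 and 50.9% in induced libraries 1 to 4. Summed over the members, the normalised counts were 255271, 249230, 257950 and 311284 in uninduced and 149940, 135933, 147414 and 139672 in induced heads. Uninduced library 4 was the highest of its group in 75 of the 106 members (70.8%), beside 39.1% of the expressed CG genes and 18.8% of the 117 higher CG genes. A high value in an uninduced library raises the mean that the rule divides by. The choice itself thus favours genes high in that library, and the share of 70.8% is not independent of the rule. In the induced group the highest library was number 1 in 42 members, 2 in 17, 3 in 31 and 4 in 16.

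Uninduced library 4 also decided part of the membership. Without it 84 CG genes met the rule, of which 82 were members, so that 24 members dropped out and 2 genes came in. Leaving out any other library gave between 100 and 124 genes. The median log2 fold change of the 106 members without uninduced library 4 was -0.85. Of the 84 genes, 33 were below a ratio of 0.5, 20 below 0.4, 6 below 0.3 and 3 below 0.2, and 19 (22.6%) had a name. The rule was then met by 2.06% of the CG genes at that level and by 1.68% of the genes with other names.

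In their structure the members were shorter than other expressed CG genes. They had a median of 1359.5 exon bases, beside 1862 for the 4074 expressed CG genes and 2057 for the 117 higher ones, and their proteins had a median of 360.5 residues beside 415 and 466. A single exon block was annotated for 18 members (17.0%), beside 10.9% and 14.5%. Exon bases were shared with another gene in 29 members (27.4%), beside 42.3% and 33.3%. By chromosome arm, 26 lay on 2L, 22 on 2R, 14 on 3L, 33 on 3R and 11 on X. On X this is 10.4% of the members beside 17.5% of the expressed CG genes, and on 2L 24.5% beside 18.0%. Among the 84 genes left without uninduced library 4 the median was 1537.5 exon bases and 370 residues, 14 (16.7%) had a single exon block and 23 (27.4%) shared exon bases. Of the 84, 16 lay on 2L, 18 on 2R, 13 on 3L, 26 on 3R and 11 on X (13.1%). These properties were compared as descriptions, without a test.

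Some members lie side by side. Within 10 kb of another member were 19 of the 106 (17.9%), beside 18 of the 117 higher genes (15.4%), and within 50 kb 23 and 32. Without uninduced library 4, 14 of the 84 genes (16.7%) lay within 10 kb of another and 18 within 50 kb. In 4 pairs the exons overlap on opposite strands, and with the strand setting not known their counts may share reads. CG5327 and CG5493 share 1166 exon bases on 2R (18615988 to 18618317, plus, and 18616692 to 18619328, minus). Their values differed by at most 5 in any library, with 1788, 1579, 1659 and 2015 normalised counts in uninduced and 952, 858, 911 and 775 in induced heads for CG5327. Reads of the pair cannot be told apart here, and the pair counts as 1 signal.

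CG4619 and CG5853 share 1853 exon bases on 2L and also ran close, with 3332, 3154, 3391 and 3904 normalised counts for CG4619 and 3328, 3164, 3420 and 3969 for CG5853 in uninduced heads. In induced heads they parted slightly, with 1731, 1784, 1727 and 1790 for CG4619 and 1452, 1555, 1565 and 1570 for CG5853. CG1628 and CG2124 on X share 619 exon bases. CG1628 had 2139, 2104, 2210 and 2465 normalised counts in uninduced and 884, 849, 737 and 867 in induced heads, and CG2124 had 1261, 1266, 1324 and 1551, and 546, 556, 489 and 560. In both genes induced library 3 was the lowest and uninduced library 4 the highest.

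CG15120 and CG16926 on 2R share only 78 exon bases and differed in level. CG16926 had 2193, 2366, 2667 and 3206 normalised counts in uninduced and 1108, 924, 1251 and 872 in induced heads. CG15120 had 123, 126, 156 and 191 in uninduced and 80, 65, 66 and 50 in induced heads. The order of the uninduced libraries was the same in both genes, and both were lowest in induced library 4.

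**Figure D4:**
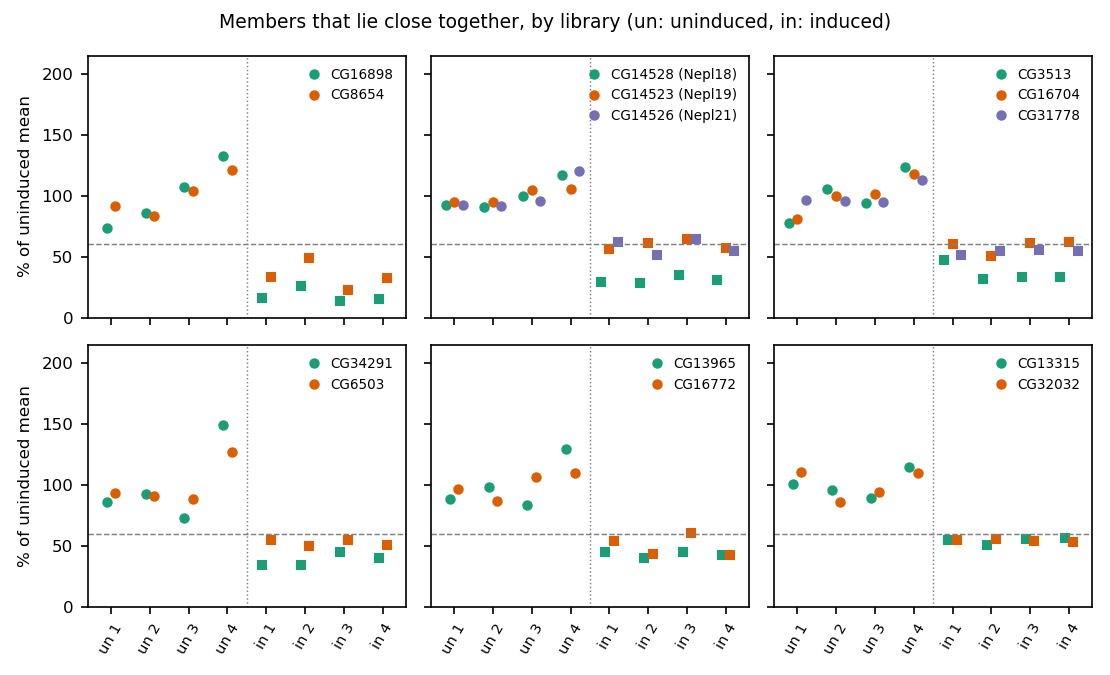
Neighbouring members that share no exon, as a percentage of each gene's uninduced mean, by library (circles, uninduced; squares, induced; dashed line at 60%). Induced library 2 is the highest and induced library 3 the lowest of its group in both CG16898 and CG8654, and Nepl18 lies below Nepl19 and Nepl21 in every induced library.

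Other close members share no exon. On 3R, Nepl18, Nepl19 (218 bp away) and Nepl21 (3570 bp from Nepl19) form a run of neprilysin-like genes with different ratios. Nepl21 had 3473, 3445, 3585 and 4506 normalised counts in uninduced and 2340, 1941, 2412 and 2049 in induced heads, at 58.2% of the uninduced mean. Nepl19 had 250, 250, 277 and 279, and 148, 161, 170 and 151, at 59.7%, while Nepl18 was at 31.0%. A further gene of the run, Nepl17 (CG14529), was no member and fell by 0.59 ± 0.10 on the log2 scale (adjusted p = 0.000356, edgeR). Nepl20 (CG14527), between Nepl19 and Nepl21, was no member either and did not pass the test, with a log2 fold change of -0.43 ± 0.23 (adjusted p = 0.155, edgeR). It had 58, 62, 43 and 52 normalised counts in uninduced and 59, 28, 46 and 27 in induced heads, and the groups overlapped.

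CG16898 and CG8654 lie 18724 bp apart on 2R and varied alike within the induced group. CG8654 had 1691, 1551, 1926 and 2249 normalised counts in uninduced and 615, 913, 416 and 603 in induced heads. In both genes induced library 2 was the highest and induced library 3 the lowest, and uninduced library 4 the highest. The log2 fold changes were -2.50 ± 0.20 for CG16898 and -1.54 ± 0.17 for CG8654.

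On 2L, CG3513 and CG16704 are 111 bp apart and CG31778 lies 10923 bp from CG3513. CG3513 had 74, 100, 89 and 117 normalised counts in uninduced and 45, 30, 32 and 32 in induced heads. CG16704 had 778, 956, 971 and 1130, and 581, 481, 586 and 592. CG31778 had 1612, 1598, 1586 and 1880, and 861, 912, 929 and 910. Their ratios differed, at 36.6, 58.4 and 54.1%, and induced library 1 was the highest for CG3513 and the lowest for CG31778.

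CG34291 lies 184 bp from the abundant CG6503 on 3R and was lower in both level and ratio, with 308, 334, 262 and 536 normalised counts in uninduced and 123, 123, 160 and 144 in induced heads. Uninduced library 4 was the highest in both. CG13965 and CG16772 on 2L are 326 bp apart, with ratios of 43.0 and 49.9%. CG13315 and CG32032 on 3L are 2020 bp apart, with ratios of 54.2 and 54.4%.

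Genes next to the members that were not members themselves were then examined. The rule did not use the values of neighbours with other names. It shaped the set in part, however, since a CG gene that met it was a member and could not count as a neighbour. The nearest protein-coding gene on either side gave 191 genes, of which 133 could be tested. Of these 50 (37.6%) were lower and 18 (13.5%) were higher at an adjusted p under 0.05 with edgeR, beside 18.8% and 17.7% of all genes. Where the neighbour shared no exon base with the member, 43 of 119 (36.1%) were lower and 16 (13.4%) higher. Next to the 117 higher CG genes 23 of 170 tested (13.5%) were lower and 52 (30.6%) higher, and next to all expressed CG genes 18.1% were lower and 18.4% higher. The sets of neighbours skipped different genes, as given with the processing. Whether these shares differ by more than chance was not tested. With library totals as the only scaling 27 neighbours of the members were lower and 39 higher, and without uninduced library 4 45 were lower.

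**Figure D5:**
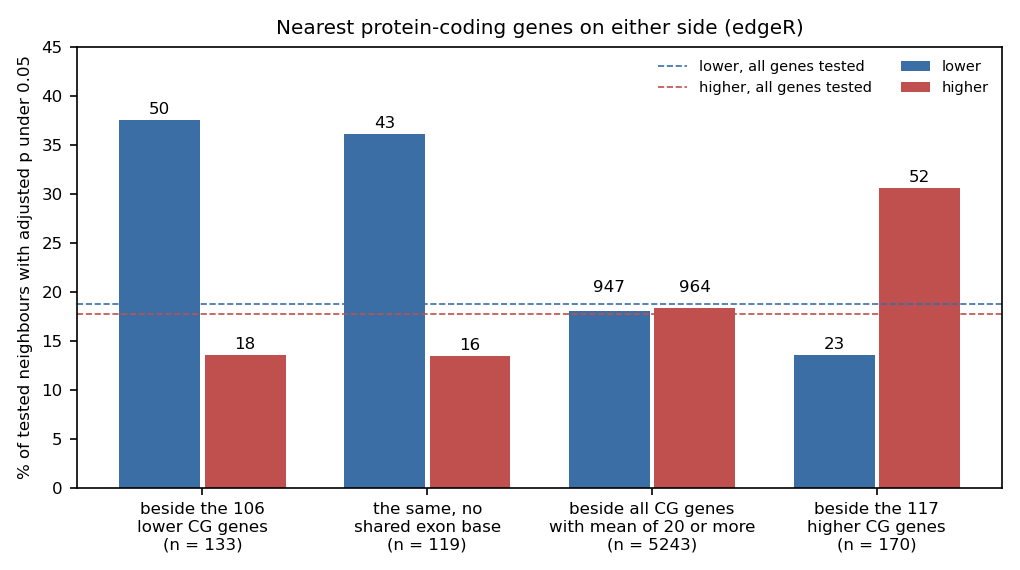
Share of tested neighbouring genes that were lower (blue) or higher (red) in induced heads at an adjusted p under 0.05 (edgeR), with the number of genes above each bar and the share over all 9905 genes tested as dashed lines. Beside the members 37.6% were lower and 13.5% higher, and beside the 117 higher CG genes 13.5% were lower and 30.6% higher.

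The neighbours described next were chosen after their values were seen. Gnmt (CG6188), glycine N-methyltransferase, which uses up the methyl donor S-adenosylmethionine, overlaps CG43630. Gnmt met the limits of the rule and is no member only because it was left out of the choice beforehand. It fell from 165, 117, 119 and 253 to 42, 50, 38 and 37 normalised counts (log2 fold change -1.98 ± 0.24, adjusted p = 1.7e-05). The groups were well apart in Gnmt, while in CG43630 the rule required that they did not overlap. The exons of Gnmt and CG43630 overlap on opposite strands, and with the strand setting not known their counts may share reads. MFS14, a transporter gene next to CG15096, fell from 3053, 3141, 2869 and 3079 to 1376, 1428, 1336 and 1321 (-1.15 ± 0.05, adjusted p = 5.0e-10). CG15096 measured 4926, 4954, 5356 and 5820 in uninduced and 3085, 2486, 2663 and 2401 in induced heads.

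Desat1, the fatty acid desaturase, lies 36 bp from vrs (CG5538). Desat1 fell from 78029, 67272, 70522 and 83094 to 38443, 35341, 40976 and 38954 normalised counts (-0.96 ± 0.07, adjusted p = 1.8e-07). The member vrs had 33, 33, 19 and 28 normalised counts in uninduced and 13, 16, 9 and 15 in induced heads. The pair share no exon base. The groups did not overlap in Desat1, whereas in vrs non-overlap was a condition of the rule and the values rest on few reads.

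The neighbour ssp7 lies 210 bp from CG15199 and fell by 1.24 ± 0.09 on the log2 scale (adjusted p = 1.9e-07). Gs1, a glutamine synthetase, lies 1285 bp from CG3164 and fell by 0.83 ± 0.04 (adjusted p = 4.4e-09). CG3164 itself had 12647, 11079, 12841 and 13957 normalised counts in uninduced and 6723, 6803, 7121 and 6808 in induced heads. The feeding-related fat body gene fit, which shares 67 exon bases with CG31465, fell by 1.23 ± 0.15 (adjusted p = 2.3e-05). CG31465 had 5320, 5242, 5475 and 7486 normalised counts in uninduced and 3706, 2260, 2595 and 2639 in induced heads, and 97.5% of its exon bases are shared with an antisense RNA gene. Neighbours also rose: Act79B, a muscle actin beside P5CS, rose by 1.13 ± 0.16 on the same scale (adjusted p = 6.6e-05), in the opposite direction to P5CS. CG13428, which lies 6146 bp from CG30148, had 15, 1, 2 and 4 normalised counts in uninduced and 30, 105, 308 and 112 in induced heads. Its rise of 4.60 ± 0.78 (adjusted p = 0.000381) was the largest change of any tested neighbour of the members, from an uninduced level of few reads.

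Markers of the tissues in a head moved with the groups to different degrees. Over all genes tested 18.8% were lower and 17.7% higher. Of 18 fat body markers 14 could be tested, and 12 were lower (11 under library totals) and 1 higher, with a median log2 fold change of -0.49. Their summed normalised counts were 1996599 to 2170778 in uninduced and 1271469 to 1623519 in induced heads. Uninduced library 4 was the highest, as it was for the members. Most of these sums came from the yolk protein genes Yp1, Yp2 and Yp3. Yp1 alone had 816919 to 853156 normalised counts in uninduced and 556235 to 686633 in induced heads. The largest falls were those of the larval storage proteins Lsp2 (-4.47 ± 0.26, adjusted p = 1.5e-08) and Lsp1beta (-2.97 ± 0.22, adjusted p = 1.8e-07). None of the fat body markers could be a member, because all carry names and the rule admits only bare CG numbers. Lsp2 and Lsp1beta, for example, met its other conditions. The part of the fat body in the fall of the members was not tested.

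Of 14 neuronal markers 3 were lower and 4 higher, beside 18.8% and 17.7% of all genes tested. With library totals as the only scaling 11 were higher, where the median over all genes also rose to 0.18 on the log2 scale. Their sums were 60618 to 66834 in uninduced and 66806 to 70620 in induced heads. For glia 3 of 10 were lower and 3 higher, and for muscle 1 of 13 was higher and 12 did not pass the test. For photoreceptors 1 of 14 was lower and 3 higher, with 9 higher under library totals and 0 without induced library 4. Of 9 tested hemocyte markers 6 were lower and 1 higher, and without uninduced library 1 3 were lower. The median log2 fold change of the tested hemocyte markers was -0.56. Their sums overlapped, at 4949 to 6320 in uninduced and 5041 to 6982 in induced heads. These sums include Pxn, the marker that rose, from a mean of 1056 to 2270 normalised counts. Of 26 digestive markers of the gut 11 were at 0 in every library and 3 could be tested, with the smallest adjusted p at 0.0883 for Amy-p.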

How the data were processed

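RNA of fly heads was measured in 8 libraries, 4 uninduced and 4 induced, with 15 heads each. Reads had been mapped to Dm6 by the authors. Which aligner, counter and strand setting they used is not given in the sources used here. Deposited values are raw counts per gene and library, and beside them a normalised score per gene and library, which equalled the count divided by a size factor to within 1. The deposited fold change and p-value columns were made by the authors with DESeq2 and were not used.

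The members were chosen on the normalised values, and each sample label gave the group. The members and the gene lists were chosen with earlier results of these data known. The test on raw counts was edgeR 4.0.16 under R 4.3.3 (TMM, filterByExpr, quasi-likelihood test, Benjamini-Hochberg adjustment over 9905 genes). The standard error of a log2 fold change was calculated back from the F statistic, so it is approximate. The script was tested on simulated data with known changes. Precision is set by library totals of 13247282 to 14962813 counts and is lowest for genes with few counts. The labels call the libraries biological replicates, and sources of the flies beyond this are not stated.

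Genes were matched to RefSeq and Ensembl annotations of Release 6, the same assembly as dm6, by symbol (12514), CG number (3352) or synonym (653), and 208 were not matched. A neighbour of a member is the nearest protein-coding gene on either side that is not a member. For the higher CG genes, genes of that set were skipped instead, and members could count. For all expressed CG genes none was skipped, and members were dropped afterwards. The lists comprised markers of fat body, neurons, glia, photoreceptors, muscle, hemocytes, oenocytes, gut and ovary, and lipases, maltases and amylases, amino acid catabolism and detoxification families. The genes named were the 10 lowest ratios, the 10 highest levels per kb, members within 10 kb of each other, genes next to the limits, the members with the largest coefficients of variation and the 2 largest changes per list. Members with an annotated name and single neighbours were added after their values were seen. Alternatives were DESeq2 1.42.0, other scalings and filters, a replicate block, other limits of the rule and leaving out each library. Structure, ratios and clustering without uninduced library 4 were added after seeing the data. Sequence features of proteins and promoters were planned and were not analysed here.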

Additional observations from a re-analysis of the deposited data

Results flagged for a closer look

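In 20 of the members' 212 groups of 4 libraries, 1 library passed the 95% critical value of Dixon's outlier test. By chance 10.6 groups would be expected to pass, at 1 in 20. The choice of the members favours genes high in uninduced library 4, and the same count was not made over all genes. In 10 of the 20 this was uninduced library 4 on the high side: CG32444 (6556 normalised counts), CG31465 (7486), CG6503 (23109), CG31778 (1880), CG18249 (812), Eglp4 (3170), Gbp3 (4522), CG6426 (3621), Nepl21 (4506) and CG4716 (48519). The remaining high value in uninduced heads was library 2 for CG42807 (208).

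In the induced group, library 1 was high for CG3513 (45), CG1544 (424) and Gbp3 (2464) and low for CG5853 (1452). Library 2 was high for Mtkl (10, beside 9 in each of the others, a difference of 1 normalised count) and low for CG16704 (481). Library 3 was high for CG7997 (628) and low for CG33099 (7). Library 4 was high for CG5246 (57, beside 10 to 16).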

How the results depend on the processing

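Under library totals the balance of calls turned, from 50 lower and 18 higher neighbours and from 1866 lower and 1750 higher genes to the counts below. Of the summary values under alternatives, 285 stayed within the limits set for a change and 18 moved, and of the values of single genes 588 stayed and 23 moved. Library totals as the only scaling moved the median over all genes from 0.00 to 0.18 on the log2 scale and that over the members from -0.92 to -0.74. It gave 52 members, 874 lower and 4488 higher genes, 27 lower and 39 higher neighbours, 0 lower and 11 higher neuronal markers, 9 higher photoreceptor markers, 1 lower maltase or amylase, 4 lower enzymes of amino acid catabolism and 14 higher detoxification genes. A ratio of 0.5 left 42 members and of 0.7 gave 229. Leaving out 1 library at a time gave 84 to 124 members, 0 to 3 higher photoreceptor markers (0 without induced library 4), 3 to 8 lower hemocyte markers (3 without uninduced library 1) and 3 to 5 higher detoxification genes. DESeq2 called 1644 lower and 1529 higher genes.

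Same-numbered libraries did not vary together (correlations of -0.07 to 0.02). No pairing by number was seen in the values, which cannot show whether the libraries were handled in pairs. With a replicate block 1788 genes were lower and 1671 higher. The planned comparisons by blastp were not run. Few reads limit members such as CG10073, CG43630 and Mtkl, whose induced values rest on 4 to 14 normalised counts.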

Other observations

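Lists of metabolic genes with names gave further values, to be read beside the 18.8% of all genes tested that were lower and the 17.7% that were higher. Of 121 tested genes of the cytochrome P450, glutathione S-transferase and UDP-glycosyltransferase families 65 were lower and 3 higher with edgeR, with a median log2 fold change of -0.30. The member Ugt37A3 is 1 of them. GstD5 was the largest rise, from 1, 0, 2 and 3 to 14, 16, 14 and 15 normalised counts, and Cyp4e3 the largest fall (-2.77 ± 0.34, adjusted p = 2.4e-05), from 615, 511, 967 and 1870 to 151, 142, 127 and 160. Uninduced library 4 was the highest for Cyp4e3.

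Of 9 tested lipase and lipid droplet genes 5 were lower and 1 higher. The lipase gene dob (doppelganger von brummer) fell by 1.77 ± 0.08 (adjusted p = 1.3e-09), and Lsd-1, a lipid droplet coat protein, by 0.98 ± 0.09 on the log2 scale (adjusted p = 2.1e-06). Of 8 tested maltase and amylase genes 3 were lower, with tobi, a sugar-responsive glucosidase also counted with the fat body markers, at -2.90 ± 0.17 (adjusted p = 1.7e-08) and Mal-A5 at -0.31 ± 0.05 (adjusted p = 0.000482). Of 21 enzymes listed for amino acid catabolism 8 were lower and 2 higher. Beside Gnmt, Hn (phenylalanine hydroxylase) had -0.69 ± 0.08 (adjusted p = 1.8e-05).

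Among markers, Pxn, the peroxidasin gene of hemocytes, was the 1 hemocyte marker that rose (1.10 ± 0.06, adjusted p = 3.3e-09), while NimC1 fell (-0.93 ± 0.27, adjusted p = 0.0152). The glutamate transporter gene of glia, Eaat1, had -0.88 ± 0.04 (adjusted p = 2.9e-09) and moody, of the blood-brain barrier, -0.43 ± 0.07 (adjusted p = 0.000183). The neuronal microtubule protein futsch had 0.71 ± 0.05 (adjusted p = 1.8e-07) and Cha, which makes acetylcholine, 0.29 ± 0.05 (adjusted p = 0.000487). The photoreceptor genes Rh4 and trpl had -0.39 ± 0.04 (adjusted p = 1.3e-05) and 0.19 ± 0.06 (adjusted p = 0.0178). Of 5 tested oenocyte markers 1 was lower and 2 higher, led by CG18031 (1.56 ± 0.11, adjusted p = 8.1e-08) and FASN3 (1.00 ± 0.22, adjusted p = 0.00242). The muscle actin Act88F had 1.01 ± 0.21 (adjusted p = 0.00145). Of 12 markers of chorion and ovary 2 could be tested, with the smaller adjusted p at 0.145 for vas. All adjusted p values are from edgeR.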
